A study of Arabidopsis thaliana with 6 samples.

Results

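The kinase genes PTI1-4 and ATMPK8 were followed in distal leaves of Arabidopsis thaliana after glycerol-3-phosphate (G3P) had been delivered to a primary leaf. They were chosen by symbol: a gene qualified where a probe set naming that gene alone carried a symbol of a listed stem. The stems were those of receptor-like kinases and receptor-like proteins (CRK, WAK, WAKL, RLK, PERK, SERK, RLP, LECRK, PTI1) and of the MAP kinase cascade (MPK, MKK, MAPKKK, MKKK). This selection held 2 of the 8854 genes named by a probe set of their own. PTI1-4 (AT2G47060, on chromosome 2) was the member of the PTI1 stem, and ATMPK8 (AT1G18150, on chromosome 1) was the member of the MPK stem. The other 11 stems had 0 members. RefSeq (assembly TAIR10.1) gives such a symbol to 177 genes, among them 40 with CRK, 54 with RLP, 20 with MPK and 9 with MKK. These are counts of symbols: RLP names receptor-like proteins rather than kinases, and CRK also names CDPK-related kinases, which were not split off. Genes of the 177 whose symbol no probe set carried were not analysed here. Of the 8950 probe sets naming 1 gene, 7734 carry a locus number as their symbol, so a stem with 0 members may still have measured genes. Neither member is a kinase that spans the membrane, so the set is called by its gene names rather than as a set of receptor-like kinases.

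Leaves of the G3P group came from plants whose primary leaf had been infiltrated with exudate to which G3P was added (labelled exudate MgCl2+G3P), and leaves of the mock group from plants given exudate without G3P (labelled exudate MgCl2). What MgCl2 stands for in these labels is not stated. All plants were Col-0, of the Columbia ecotype, and 3 to 4 weeks old by the sample labels (4 weeks by the design text), with no mutation or transgene named in the labels, and the exudate was common to both groups. Distal leaves were taken 24 h later, and 3 biological replicates per group, each from its own set of plants, were hybridised to ATH1 arrays, which report 1 intensity per probe set. The question the comparison addresses is what G3P in one leaf does to transcripts elsewhere in the plant.

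Plants detect microbial and endogenous molecules through receptor kinases at the cell surface. Receptor-like cytoplasmic kinases, which lack an extracellular domain, act below them, and MAP kinase cascades pass the signal on by successive phosphorylation, from MAP kinase kinase kinases through MAP kinase kinases to MAP kinases. PTI1-4 belongs to the PTI1 family of cytoplasmic kinases, named after a tomato protein that interacts with the resistance kinase Pto, and its product interacts with the oxidative-signal kinase OXI1 and the MAP kinase MPK6. ATMPK8, also called MPK8, encodes a MAP kinase that responds to wounding through the upstream kinase MKK3 and calmodulin and limits the production of reactive oxygen. The activity of these proteins is set largely by phosphorylation, which an array of transcripts does not measure.

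The table held 16129 probe sets, with median signals of 291 to 338 per array and 2% trimmed means of 747 to 754. G3P replicate 3 stood apart: its Pearson correlations with the rest, taken over probe sets, were 0.842 to 0.913, against 0.930 to 0.961 among the other 5, and 1223 of its probe sets lay over 1 log2 unit outside the range of those arrays, compared with 42 to 186 on each of the others. The 6 measured green leaf markers (LHCB4.1, LHCB4.2, RCA, PSAN, PSBW and PRK) had summed signals of 108453, 104577 and 51840 on G3P arrays. On mock arrays the sums were 129755, 107842 and 111738, so the lowest sum was that of G3P replicate 3. LHCB4.1, LHCB4.2, PSAN and PSBW were each lowest on that array. RCA (8959) and PRK (8575) were lowest on G3P replicate 1, against 10471 and 8863 on G3P replicate 3. The guard cell gene FAMA had 240 to 326 on G3P arrays and 187 to 350 on mock arrays, and the flower and pollen gene AGL18 had 84.3 to 108 on G3P arrays and 35.1 to 94.6 on mock arrays. In whole leaves, fewer cells of a type and less RNA per cell cannot be told apart.

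PTI1-4 had lower signals on the 3 G3P arrays than on the 3 mock arrays, a difference that did not pass the test across all probe sets. Its signals were 1631, 1369 and 1044 on G3P replicates 1, 2 and 3, against 2274, 2692 and 2109 on mock replicates 1, 2 and 3. The groups did not overlap: the brightest G3P array lay 0.37 log2 units below the dimmest mock array. Mean signals were 1348 ± 294 in G3P leaves and 2359 ± 301 in mock leaves (SD, n = 3 each), and the ratio of the group medians, the measure that the study's design text names, was 0.602. On the scale of log2(signal + 16) the means were 10.39 ± 0.32 in G3P leaves and 11.21 ± 0.18 in mock leaves. The log2 difference was -0.82 ± 0.23 (SE), a fold of 0.568 with a 95% interval of 0.393 to 0.821 that carries no multiplicity adjustment. The test across all probe sets gave no call (limma, unadjusted p = 0.00769, Benjamini-Hochberg adjusted p = 0.912). The exact two-sided permutation test over the arrays gave p = 0.1, the smallest that 3 arrays against 3 allow.

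**Figure D1:**
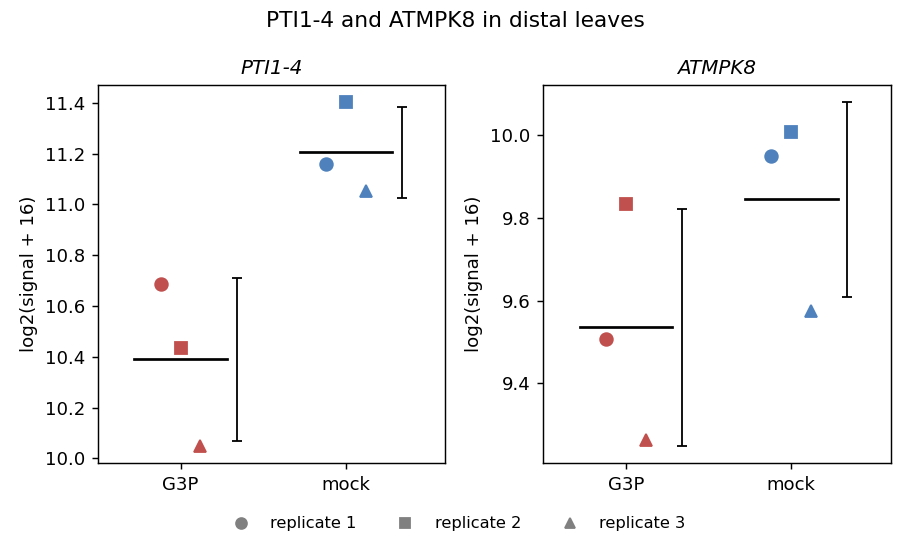
Signals of PTI1-4 (left) and ATMPK8 (right) on each array as log2(signal + 16), with G3P and mock side by side; symbols are replicates, horizontal lines group means and vertical bars ± SD (n = 3 each), and the y axes differ and do not start at 0. All 3 G3P points of PTI1-4 (10.05 to 10.69) lie below its mock points (11.05 to 11.40), while those of ATMPK8 (9.26 to 9.83) overlap with mock (9.58 to 10.01).

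ATMPK8 was lower in G3P leaves on average, but by no more than arrays of a group differed from each other. It had signals of 712, 897 and 599 on G3P replicates 1, 2 and 3, against 973, 1014 and 747 on mock replicates 1, 2 and 3. G3P replicate 2 was above mock replicate 3, so the groups overlapped, and G3P replicate 3 was the lowest array of all. Mean signals were 736 ± 150 in G3P leaves and 911 ± 144 in mock leaves (SD, n = 3 each), with a ratio of medians of 0.732. The log2 difference was -0.31 ± 0.24 (SE), a fold of 0.807 with an unadjusted 95% interval of 0.552 to 1.18 (limma, unadjusted p = 0.228, adjusted p = 0.912). No difference, a fold as low as 0.552 and a fold as high as 1.18 are all within this interval. The exact two-sided permutation test gave p = 0.2.

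Read against the rest of the array, PTI1-4 lay towards the lower end of the differences and ATMPK8 within their bulk. Of the 16129 probe sets, 0% had an adjusted p under 0.05 and 3.08% an unadjusted p under 0.05, 1.95% with G3P lower, while 53.5% had a negative difference. Of the 2 members, 0 passed after adjustment, 1 (PTI1-4) had an unadjusted p under 0.05 and both had a negative difference. The groups were apart for 8.64% of all probe sets and apart with G3P lower for 4.37%, against PTI1-4 among the members. A difference more negative than that of PTI1-4 was found for 4.25% of probe sets, and one more negative than that of ATMPK8 for 24.1%. In limma 30 probe sets had a smaller p than PTI1-4 and 3881 a smaller p than ATMPK8. The within-group SD was 0.26 log2 units for each gene, smaller than the median of 0.37 over all probe sets. A still smaller SD was found for 27.3% of probe sets beside PTI1-4 and for 27.8% beside ATMPK8.

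**Figure D2:**
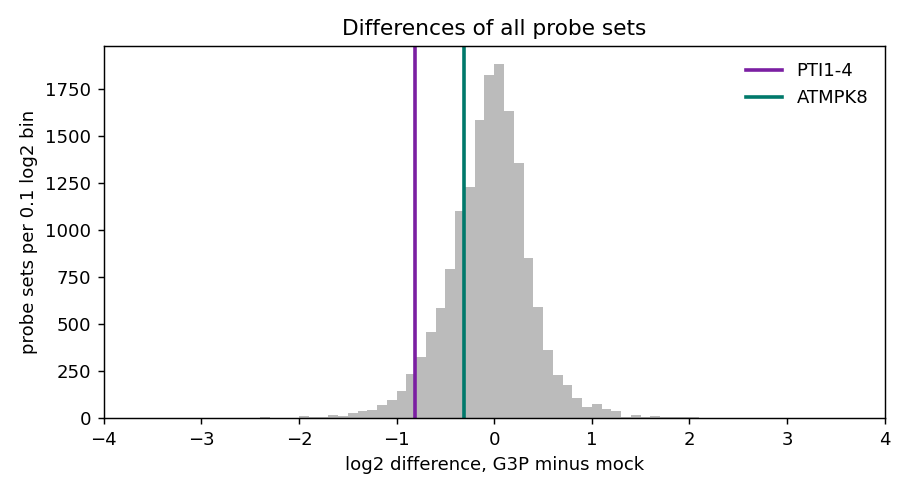
Histogram of the log2 difference, G3P minus mock, for all 16129 probe sets (x axis, bins of 0.1 log2 units; y axis, probe sets per bin), with vertical lines at PTI1-4 (-0.82) and ATMPK8 (-0.31). The line of PTI1-4 stands in the lower flank, with 4.25% of probe sets below it, and that of ATMPK8 in the central part.

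The 2 members were compared within arrays to ask whether their differences were unequal. The log2 value of PTI1-4 minus that of ATMPK8 was 1.18, 0.60 and 0.79 on G3P replicates 1, 2 and 3, against 1.21, 1.39 and 1.48 on mock replicates 1, 2 and 3. All 3 G3P values were below the mock values, with G3P replicate 1 close to mock replicate 1. The mean was 0.86 ± 0.29 in G3P leaves and 1.36 ± 0.14 in mock leaves (SD, n = 3 each), a difference of -0.51. The exact two-sided permutation test gave p = 0.1, again the smallest possible, so a difference between the genes was not established. A ratio of this kind depends on the probes in its level and is read here for its change alone.

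Both members had their lowest signal on G3P replicate 3, the array that stood apart, and their highest on mock replicate 2. Without G3P replicate 3 the log2 difference of PTI1-4 was -0.65 ± 0.22 (SE) and the groups remained apart (limma, unadjusted p = 0.0173, adjusted p = 0.999), while that of ATMPK8 was -0.17 ± 0.24 (unadjusted p = 0.498, adjusted p = 0.999). Without this array 8.17% of all probe sets had groups apart with G3P lower, and 2.71% an unadjusted p under 0.05. The size of the ATMPK8 difference moved by over 1.5 times with this array. The part of the low green leaf marker sum of that array in either result was not tested.

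The other genes of the pathway were taken from a list of 84 receptors, cytoplasmic kinases, cascade kinases, phosphatases and outputs. Listed names were matched to RefSeq symbols and synonyms, so a probe set carrying a locus number could count, unlike for the members. A name was kept where it matched exactly 1 gene with a probe set of its own, as 9 of the 84 did. None of the listed cascade kinases under other names (0 of 13) and phosphatases (0 of 9) was among them, so no listed partner of ATMPK8 at those steps could be followed. Of the 9 genes, 0 passed after adjustment in limma and 1 had an unadjusted p under 0.05, beside 3.08% of all probe sets. By sign 2 were higher and 7 lower in G3P leaves, beside 53.5% of all probe sets with a negative difference, with a median log2 difference of -0.23, compared with -0.03 over all probe sets. The groups were apart for 2 of the 9, beside 8.64% of all probe sets apart in either direction. Both were lower in G3P leaves, beside 4.37% of all probe sets apart in that direction. The list was chosen with earlier results of these data known.

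**Figure D3:**
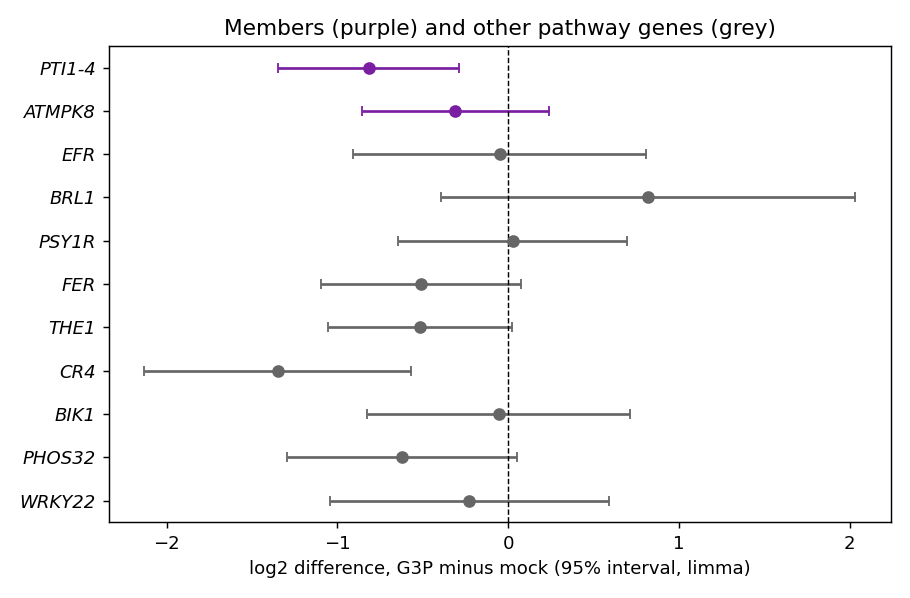
Log2 differences, G3P minus mock, of PTI1-4 and ATMPK8 (purple) and of the 9 measured pathway genes (grey), with 95% intervals from limma, unadjusted for multiplicity; the dashed line marks no difference. The intervals of PTI1-4 and CR4 lie below 0 and those of the other 9 genes include it.

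Among the receptor kinases, CR4, a receptor kinase of epidermal patterning, had signals of 16.8, 38.7 and 20.5 on G3P arrays and of 93.5, 86.8 and 80.2 on mock arrays. Its groups were apart, with a log2 difference of -1.35 ± 0.34 (SE; limma, unadjusted p = 0.00412, adjusted p = 0.912). The probe set was dim, and its difference was -1.83 with a pseudocount of 1 in place of 16 and -0.76 with one of 64. THE1, a wall-sensing receptor kinase related to FER, had 658, 603 and 466 on G3P arrays and 881, 930 and 675 on mock arrays. The highest G3P array was just under the lowest mock array, and the log2 difference was -0.52 ± 0.23 (unadjusted p = 0.0587, adjusted p = 0.912). FER, which encodes the receptor FERONIA for RALF peptides, had 1131, 2074 and 1507 on G3P arrays and 2235, 2341 and 1975 on mock arrays. Here G3P replicate 2 lay within the mock range, and the log2 difference was -0.51 ± 0.25 (unadjusted p = 0.0793, adjusted p = 0.912). It was -0.30 without G3P replicate 1 (unadjusted p = 0.245 in limma) and -0.73 without G3P replicate 2 (unadjusted p = 0.0206). Without G3P replicate 2, however, 1196 of all probe sets had an unadjusted p under 0.05 in limma, against 496 with all arrays.

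The remaining receptors had no such separation. EFR, the receptor for the bacterial elongation factor EF-Tu, had 57.9 to 104 on G3P arrays and 51.6 to 124 on mock arrays, a log2 difference of -0.05 ± 0.37. Its probe set was dim, with 18.9% of probe sets at a lower mean. PSY1R, a receptor kinase named after the PSY1 peptide, had 114 to 199 on G3P arrays and 127 to 187 on mock arrays, a log2 difference of 0.03 ± 0.29. The signs of both turned with single arrays left out, and that of EFR after quantile normalization as well. BRL1, a brassinosteroid receptor of the BRI1 family, was near the lowest signals of the table, at 22.1 to 76.3 on G3P arrays and 4.38 to 30.9 on mock arrays, with 2.62% of probe sets at a lower mean. Its log2 difference was 0.82 ± 0.52 with a pseudocount of 16, 1.49 with one of 1 and 0.38 with one of 64, and it was 0.41 without G3P replicate 1 (limma, unadjusted p = 0.477), so its size is uncertain.

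Below the receptors, BIK1 encodes a cytoplasmic kinase that works downstream of several immune receptors. It had 539, 545 and 1221 on G3P arrays, against 661, 775 and 791 on mock arrays. G3P replicates 1 and 2 were below all mock arrays and G3P replicate 3 above them. The log2 difference was -0.06 ± 0.33 (SE; limma, unadjusted p = 0.873, adjusted p = 0.985). Without G3P replicate 3 it was -0.44 ± 0.22 with the groups apart (limma, unadjusted p = 0.0839, adjusted p = 0.999). Without that array 8.17% of all probe sets were apart with G3P lower, and the share apart in either direction was not computed. The sign turned to 0.14 without G3P replicate 1 and to 0.13 without G3P replicate 2. Unlike PTI1-4 and ATMPK8, which had their lowest signal on that array, BIK1 had its highest there.

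Of the outputs, PHOS32, a protein phosphorylated by MAP kinases after elicitor treatment, had 384, 657 and 476 on G3P arrays and 1056, 667 and 643 on mock arrays. Its highest G3P array lay between the mock arrays, and the log2 difference was -0.62 ± 0.29 (unadjusted p = 0.0653, adjusted p = 0.912 in limma). It was -0.40 without mock replicate 1 (unadjusted p = 0.22 in limma) and -0.82 without G3P replicate 2 (unadjusted p = 0.0303). In the latter fit 1196 of all probe sets had an unadjusted p under 0.05, against 496 with all arrays. WRKY22, a transcription factor placed downstream of the flagellin-responsive cascade, had 176, 94.0 and 170 on G3P arrays and 113, 237 and 178 on mock arrays. These groups overlapped widely, with a log2 difference of -0.23 ± 0.35 (unadjusted p = 0.539, adjusted p = 0.935). No direction can be given, since the difference was -0.0016 without mock replicate 2, -0.49 without mock replicate 1 and 0.033 without G3P replicate 2.

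**Figure D4:**
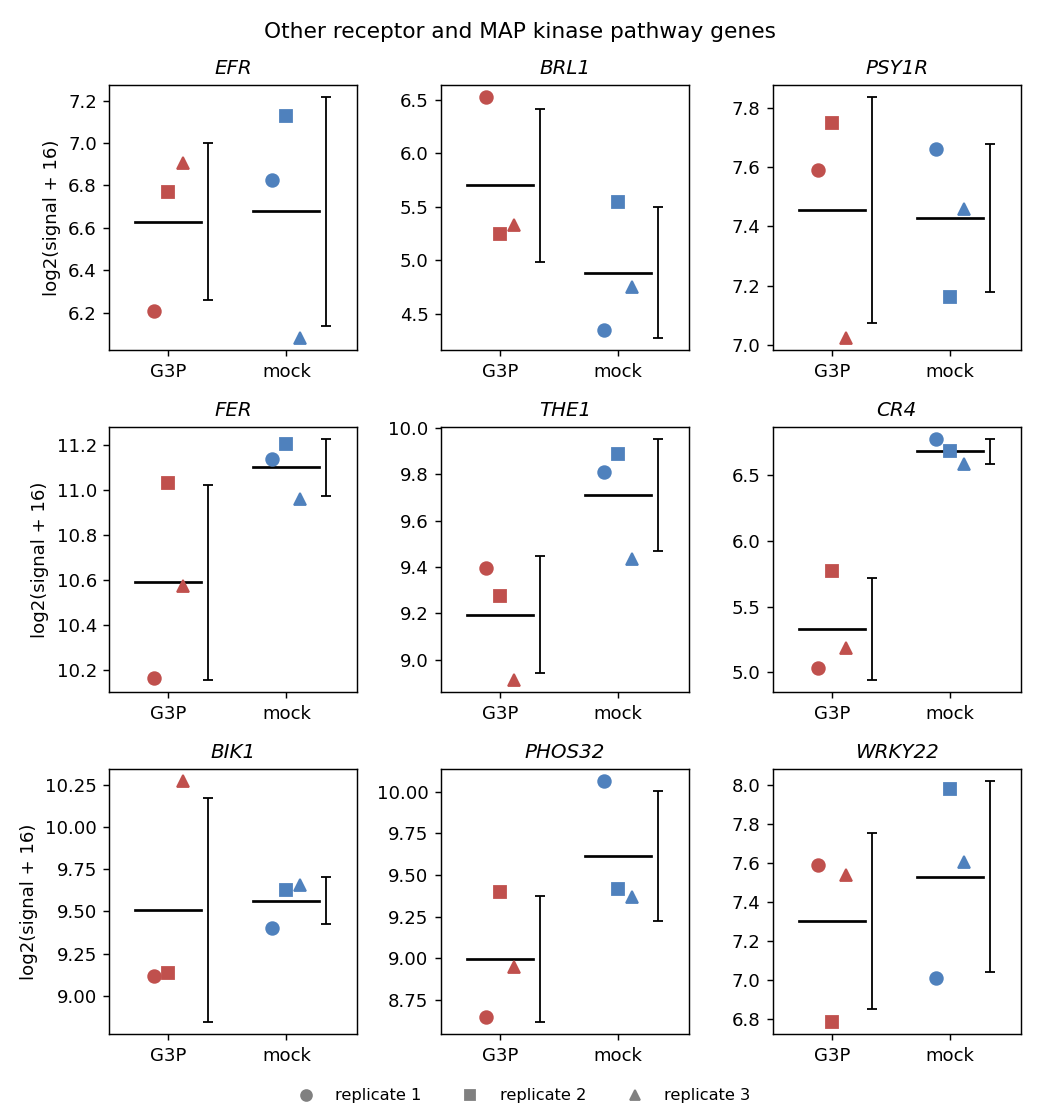
Values of the 9 measured pathway genes on each array as log2(signal + 16), with G3P and mock side by side; symbols are replicates, horizontal lines group means and vertical bars ± SD (n = 3 each), and each panel has its own y axis, which does not start at 0. The groups are apart in the panels of THE1 and CR4, and the G3P replicate 3 point of BIK1 (10.27) is its highest.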

How the data were processed

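The authors deposited 1 linear intensity per probe set and array, made with Affymetrix Expression Console 1.0 per the submitters' processing notes; how signals were summarized and scaled, and how probe sets were chosen, is not given in the sources used here. Groups came from the sample labels. Values were used without further normalization, since array medians of log2(signal + 16) lay within 0.21 log2 units, under a limit of 0.3, and the groups were compared by limma (version 3.58.1, R 4.3.3) with lmFit and trended eBayes, without covariates and with p-values adjusted by Benjamini-Hochberg over all 16129 probe sets at a threshold of 0.05. The pseudocount understates differences of dim probe sets. The exact rank-sum test of the design text, which cannot go below p = 0.1 here, was an alternative. The fit was tested on simulated data.

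The platform annotation named 1 gene for 8950 probe sets, several for 339 and none for 6840; 7734 of the 8950 carry a locus number as their symbol. Of the 8854 genes, 8819 are in the RefSeq table, which was used for names. Each member had 1 probe set, and 0 probe sets naming several genes carried a member's symbol. Every member is described, and values are given for every measured pathway gene. Members and lists were chosen with earlier results of these data known. Sequences were not used here. The number of arrays limits the precision.

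Tried as alternatives were a block for the replicate number, a pseudocount of 1 or 64, quantile-normalized values, equal array medians, a filter dropping the dimmest 25% or 50%, eBayes with no trend, array quality weights, the rank-sum test, the mean over a gene's probe sets, and the omission of each array. Arrays that share a number deviated from their groups with correlations of 0.0061 (number 1), -0.10 (number 2) and 0.31 (number 3). Arrays of unlike number were not compared in this way, so these values cannot decide whether the numbers mark pairs. The main fit did not take them as pairs, and the block for the replicate number was the alternative.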

Additional observations from a re-analysis of the deposited data

How the results depend on the processing

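Both members kept a negative difference, and 0 passed after adjustment, under all 15 other limma fits. PTI1-4 had its lowest value, -0.96, without G3P replicate 1 and its highest, -0.65, on leaving out G3P replicate 3, with an unadjusted p of 0.00356 to 0.0364 and an adjusted p of 0.652 to 0.9996. ATMPK8 had -0.46 on leaving out G3P replicate 2 and -0.17 on leaving out G3P replicate 3 as its extremes, with an unadjusted p of 0.119 to 0.498. Each is the lone measured gene of its stem, so these are also the values of the PTI1 and MPK stems. The replicate block gave -0.82 for PTI1-4 (unadjusted p = 0.0102) and -0.31 for ATMPK8 (unadjusted p = 0.203), and changed no call. The number of members with groups apart was 1, and 1 to 2 with single arrays left out. The 2 was reached without mock replicate 3 or G3P replicate 2, the arrays on which the groups of ATMPK8 overlap. Fewer arrays separate more easily: 4.37% of all probe sets were apart with G3P lower on all arrays, and 8.17% without G3P replicate 3. That share was not computed without mock replicate 3 or G3P replicate 2, so the separation of ATMPK8 there is not read as a result. The rank-sum test gave 0 calls, as it must with 3 arrays against 3.

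An unadjusted p under 0.05 was reached by 496 probe sets, and by 227 without the dimmest 50%, where fewer were tested. With an array left out this number was lowest at 233 (mock replicate 1), 282 for mock replicate 2, and highest at 1196 (G3P replicate 2); the cause was not tested. Among the pathway genes that count was 1. It was 0 without the dimmest 25% or 50%, since CR4 is left out there, and 2 with array quality weights. With single arrays left out it was 1 to 3, reaching 2 without mock replicate 3 and 3 without G3P replicate 2. The count over all probe sets also rose from 496 in these fits. It was 716 with array quality weights, 667 without mock replicate 3 and 1196 without G3P replicate 2.

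Signs turned for EFR (0.048 after quantile normalization, and -0.35 to 0.17 with single arrays left out), PSY1R (-0.12 to 0.24), BIK1 (-0.44 to 0.14) and WRKY22 (-0.49 to 0.033). BRL1, CR4 and EFR are among the dimmest 25% of probe sets, which limits the size of their differences.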
